A study of Mus musculus with 16 samples.

Results

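The 9 complement genes described here, C1qa, C1qb, C1qc, C4b, C3, Cfd, Serping1, C3ar1 and C5ar1, were taken by symbol from the 55487 genes of a count table of the mouse heart. All 9 were found, each under a single Ensembl identifier, and all 9 passed the filter on low counts that left 18275 genes for testing. Poly(A) RNA was sequenced from the heart apex of male mice collected 4 weeks after surgery. The 16 libraries formed 4 groups of 4 mice. Ctrl mice carried the long noncoding RNA gene Cardinal (Gm12295), and Cardinal-KO mice, made with CRISPR/Cas9, lacked it in all tissues. In transverse aortic constriction (TAC) a ligature tightens the aorta so that the left ventricle pumps against a higher pressure, and sham mice had the same operation without the ligature. The groups are called Ctrl sham, Ctrl TAC, KO sham and KO TAC. No other allele or agent is given for any group.

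Complement is a cascade of blood and tissue proteins that marks particles for removal, draws in leukocytes and can open membranes. It starts from C1q, made of chains encoded by C1qa, C1qb and C1qc and in tissues made largely by macrophages, from lectins with their MASP proteases, or from the alternative pathway, in which factor D (Cfd, made in quantity by adipocytes) cuts factor B. The routes meet at C3, whose fragment is bound by the receptor C3ar1, and C4 feeds into the same step. The receptor C5ar1 binds the C5 fragment, and Serping1 encodes the C1 inhibitor, which blocks the proteases that C1q activates. The liver supplies most circulating complement, while fibroblasts and macrophages make several components locally.

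The C1q genes lie side by side on the minus strand of chromosome 4 (GRCm38, GENCODE M21), C1qb (ENSMUSG00000036905) at 136880129 to 136886187, C1qc (ENSMUSG00000036896) at 136889804 to 136893065 and C1qa (ENSMUSG00000036887) at 136895917 to 136898803, all within 18675 bases. C4b (ENSMUSG00000073418) is at 34728380 to 34743882 and C3 (ENSMUSG00000024164) at 57203970 to 57228136, both on the minus strand of chromosome 17. Cfd (ENSMUSG00000061780) is on the plus strand of chromosome 10 at 79890853 to 79892655. On the minus strand, Serping1 (ENSMUSG00000023224) is on chromosome 2 at 84765387 to 84775444, C3ar1 (ENSMUSG00000040552) on chromosome 6 at 122847138 to 122856161 and C5ar1 (ENSMUSG00000049130) on chromosome 7 at 16246743 to 16259540. Counts were summed over each gene, and none of the 9 shares exon bases with another annotated gene.

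Promoter windows of 300 bases, 250 before and 50 after the start site (RefSeq, GRCm38.p6), were matched for 6 of the 9 genes, C1qb, C1qc, C3, Cfd, C3ar1 and C5ar1. The windows of C1qb and C1qc are shown because these neighbouring genes moved together, and that of C3 because it passed none of the tests while having the most counts of the 9. Bases are numbered from the 5′ end of each window. Each runs 5′ to 3′ on the minus strand, with capitals marking matches on either strand to the ETS/PU.1-like motif GAGGAA, to the C/EBP-like motif TTNNGNAA, where N is any base, or to the TATA box as TATAAA.
C1qb, chr4:136886151-136886450: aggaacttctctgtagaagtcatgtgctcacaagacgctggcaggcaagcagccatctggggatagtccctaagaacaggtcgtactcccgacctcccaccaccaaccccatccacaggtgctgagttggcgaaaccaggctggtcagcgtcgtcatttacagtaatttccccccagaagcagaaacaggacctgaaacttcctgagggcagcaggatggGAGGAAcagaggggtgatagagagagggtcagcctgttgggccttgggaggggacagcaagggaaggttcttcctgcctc
C1qc, chr4:136892865-136893164: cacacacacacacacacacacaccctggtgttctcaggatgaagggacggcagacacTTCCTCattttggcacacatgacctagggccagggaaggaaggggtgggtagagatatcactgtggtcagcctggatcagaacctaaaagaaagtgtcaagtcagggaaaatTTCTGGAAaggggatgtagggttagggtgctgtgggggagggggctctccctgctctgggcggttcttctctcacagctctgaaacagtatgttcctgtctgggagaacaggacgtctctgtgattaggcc
C3, chr17:57228087-57228386: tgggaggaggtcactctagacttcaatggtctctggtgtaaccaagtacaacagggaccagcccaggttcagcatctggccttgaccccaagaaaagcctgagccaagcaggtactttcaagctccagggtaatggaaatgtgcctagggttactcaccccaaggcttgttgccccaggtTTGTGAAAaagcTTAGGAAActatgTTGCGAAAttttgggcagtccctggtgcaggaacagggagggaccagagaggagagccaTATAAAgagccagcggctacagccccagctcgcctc
The C1qb window held GAGGAA once, at bases 221 to 226. In the C1qc window the same motif lay on the other strand at bases 58 to 63, with a C/EBP-like match at bases 170 to 177. The C3 window held C/EBP-like matches at bases 181 to 188, 193 to 200 and 206 to 213, the last reading as a match on both strands. It also held the TATA box letters at bases 265 to 270, which lie after the start site, in the last 50 bases of the window. Among 32851 mouse windows of the same length, 28.3% held the ETS/PU.1-like motif, 40.7% the C/EBP-like motif and 13.6% the TATA box. An ISRE-like motif (GAAA repeated after 2 free bases, in 3.44% of windows) and the STAT-like motif TTCNNNGAA (in 8.3%) matched in none of the 6 windows. None of the motif letters overlapped those of another motif. C3ar1 held the TATA box letters at bases 16 to 21, C5ar1 a C/EBP-like match at bases 94 to 101, and Cfd none of the 5 motifs.

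Libraries held 53169437 to 79404714 counts. Cardiomyocyte markers, the defining genes of the tissue, were high in all 16 libraries, summing to between 33630 and 52570 CPM (counts per 1000000 of the scaled library total). Cardinal itself was at 3.25 to 3.86 CPM in Ctrl sham, 0.297 to 0.553 in KO sham and 2.69 to 8.03 in Ctrl TAC. It was at 0.276 to 0.371 in KO TAC replicates 1 to 3 but at 4.55 in the library labelled KO TAC 4, which goes against its label. Ctrl TAC 2 also stood apart, with albumin (Alb) at 48.6 CPM against 1.53 to 4.51 in the other 15 libraries. KO TAC results are therefore given with and without the library labelled KO TAC 4, and Ctrl TAC results with and without Ctrl TAC 2, where either changes a call. Animal numbers in the sample titles start with 25 in Ctrl TAC 2 to 4 and the library labelled KO TAC 4. They start with 33 in Ctrl sham 4 and KO sham 1 to 3. No sham library has a number starting with 25 and no TAC library one starting with 33. Any effect of these series is thus partly mixed with surgery in the comparisons of TAC with sham. Both series are also uneven between genotypes, so such an effect is partly mixed with genotype in the comparisons of KO with Ctrl.

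After TAC, transcripts of all 3 C1q chains, of C4b and of Serping1 rose in both genotypes, while those of C3 did not pass the test in either. In Ctrl hearts 5 of the 9 genes rose and none fell at an adjusted p under 0.05 (edgeR quasi-likelihood test, Benjamini-Hochberg over 18275 genes), where 20.0% of all genes tested were called, 10.4% as higher. In KO hearts 7 of the 9 rose and none fell, where 34.3% of all genes were called, 17.8% as higher. The median log2 fold change of the 9 genes was 0.43 in Ctrl and 0.66 in KO, against medians of all genes near 0 (0.0043 and -0.0039). Sham and TAC libraries did not overlap for 4 of the 9 genes in Ctrl and 6 in KO, against 20.5% and 34.6% of all genes. The count of called genes in KO was 5 without the library labelled KO TAC 4, since C3ar1 and C5ar1 no longer passed. The share of all genes called without that library is not given here.

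**Figure D1:**
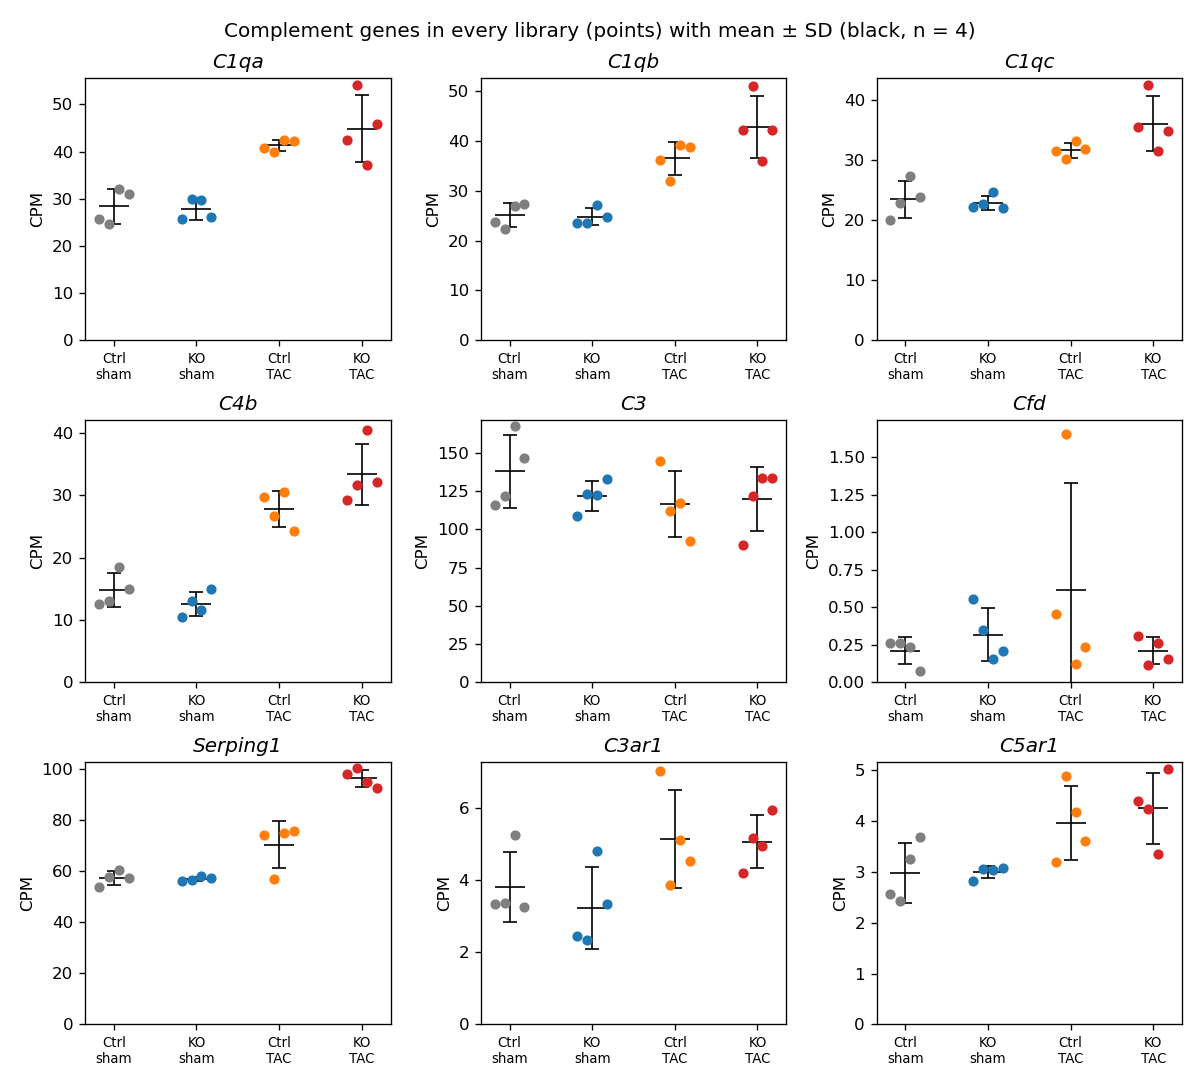
Each panel plots 1 gene, with the level in CPM on a linear axis that starts at 0 and the 4 groups across. Points are single libraries (4 per group, in replicate order) and black bars the mean ± SD. The C1q genes and C4b show both TAC groups above both sham groups, Serping1 shows KO TAC above every other library, and 1 Ctrl TAC library at 1.66 CPM sets the Cfd mean.

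All 3 C1q chains rose after TAC in both genotypes. C1qa was at 25.8, 24.7, 32.2 and 31.1 CPM in the 4 Ctrl sham libraries and at 25.7, 29.9, 29.9 and 26.2 in KO sham. It was at 40.8, 40.0, 42.4 and 42.2 in Ctrl TAC and at 42.4, 54.1, 37.1 and 45.9 in KO TAC, in replicate order. Every TAC library was thus above every sham library. The log2 fold change was 0.54 (SE 0.10, adjusted p = 0.0011) in Ctrl and 0.69 (SE 0.10, adjusted p = 5.63e-05) in KO.

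C1qb was at 23.8, 22.3, 27.0 and 27.3 CPM in Ctrl sham and at 23.6, 23.5, 27.2 and 24.7 in KO sham. After TAC it was at 36.1, 31.9, 39.1 and 38.8 in Ctrl and at 42.1, 51.0, 35.9 and 42.1 in KO. The sham and TAC libraries did not overlap in either genotype, and the log2 fold change was 0.54 (SE 0.096, adjusted p = 5.92e-04) in Ctrl and 0.79 (SE 0.096, adjusted p = 5.81e-06) in KO. C1qc went from 20.0, 22.8, 27.3 and 23.7 CPM in Ctrl sham to 31.5, 30.1, 33.1 and 31.8 in Ctrl TAC, and from 22.2, 22.6, 24.6 and 22.0 in KO sham to 35.4, 42.4, 31.5 and 34.7 in KO TAC. Again the TAC libraries were all above the sham libraries of their genotype. Its log2 fold change was 0.43 (SE 0.088, adjusted p = 0.00189) in Ctrl and 0.66 (SE 0.088, adjusted p = 1.56e-05) in KO. These 6 calls held in all 24 alternative analyses.

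The proportions of the chains were compared on counts not divided by length. C1qa per C1qb was 1.13 ± 0.047 in Ctrl sham, 1.13 ± 0.096 in KO sham, 1.14 ± 0.079 in Ctrl TAC and 1.05 ± 0.036 in KO TAC (SD, n = 4), with KO TAC overlapping each of the other groups. C1qc per C1qb was 0.935 ± 0.094 in Ctrl sham, 0.925 ± 0.034 in KO sham, 0.870 ± 0.053 in Ctrl TAC and 0.844 ± 0.023 in KO TAC. Sham and TAC overlapped in Ctrl, whereas in KO the 4 TAC libraries (0.826 to 0.876) lay below the 4 sham libraries (0.889 to 0.963), a difference that was not tested. Over the 16 libraries the log2 CPM of the 3 genes correlated with Pearson's r of 0.970 to 0.972, and within groups, after the group means were removed, with r of 0.805 to 0.852, a description in which the points share their libraries. The genes most like the C1q mean over the 16 libraries, among 10203 compared, were Laptm5 (r = 0.976), Fcrls (r = 0.965) and Tmem176a (r = 0.962). Within groups their r was 0.902, 0.767 and 0.693.

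Most macrophage markers moved in the same direction as C1q after TAC (15 of 16 with a log2 fold change above 0 in Ctrl, 14 of 16 in KO). The summed level of the 16, the C1q genes not included, ranged from 198 to 258 CPM in Ctrl sham, 191 to 246 in KO sham, 270 to 319 in Ctrl TAC and 262 to 361 in KO TAC. Lyz2 was a large part of it, at 60.8 to 149 CPM over all libraries. Of the 16, 6 were called higher in Ctrl and 11 in KO after TAC and none lower, where 10.4% and 17.8% of all genes were called higher. None was at 0 in any library. Cd163 was at 20.8 to 27.1 CPM in KO sham and 15.3 to 22.9 in KO TAC. Between the TAC groups 1 marker was called higher in KO and 1 lower, where 2.68% of all genes were called, 1.36% as higher. The C1q sum per macrophage sum was 0.335 ± 0.011 in Ctrl sham and 0.368 ± 0.012 in Ctrl TAC, with no overlap between these groups, and 0.348 ± 0.019 in KO sham and 0.388 ± 0.019 in KO TAC, with overlap. The part of macrophage number in the C1q rise was not tested. In RNA from whole tissue, more cells of a type and more RNA per cell cannot be told apart.

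**Figure D2:**
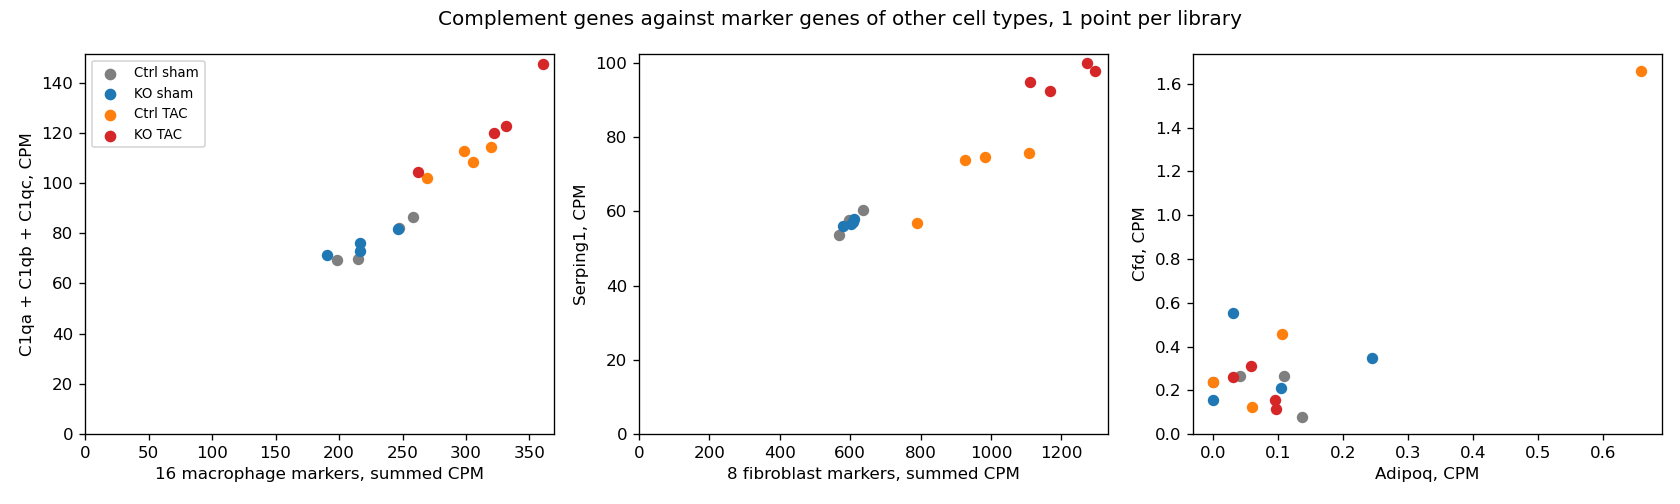
Each point is 1 of 16 libraries, coloured by group, and axes are linear in CPM. The summed C1q level follows the summed macrophage markers (left), Serping1 follows the summed fibroblast markers with all 4 KO TAC libraries at the upper right (middle), and the Ctrl TAC library with the highest Cfd is also the one with the highest Adipoq, at 0.657 CPM (right).

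C4b, which encodes the C4 component cut by the proteases of the classical and lectin pathways, had the largest called rise of the 9 genes in both genotypes. It was at 12.6, 13.0, 18.5 and 15.04 CPM in Ctrl sham and at 10.5, 13.1, 11.6 and 14.9 in KO sham. After TAC it was at 29.8, 26.7, 30.6 and 24.2 in Ctrl and at 29.3, 31.6, 40.5 and 32.1 in KO. No TAC library overlapped a sham library. In Ctrl the log2 fold change was 0.91 (SE 0.13, adjusted p = 1.54e-04), or 1.88-fold, and it was 1.42 (SE 0.14, adjusted p = 8.3e-07) in KO, or 2.67-fold. Both calls held in all 24 alternatives. C4b and the near-identical C4a can share reads in a way that counting may split, so the separate values of this pair are uncertain. C4a, at a mean of 0.696 CPM in Ctrl sham, also rose in Ctrl (log2 fold change 0.76, adjusted p = 0.0254) and in KO (1.03, adjusted p = 0.00181).

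C3, the component on which all routes converge, was the member with the most counts. Its level was 116, 122, 167 and 147 CPM in Ctrl sham and 109, 123, 123 and 133 in KO sham. In Ctrl TAC it was 145, 112, 117 and 92.8, and in KO TAC 89.7, 122, 134 and 134. The 4 groups overlapped. The log2 fold change of TAC over sham was -0.24 (SE 0.15, 95% interval -0.54 to 0.05, adjusted p = 0.297) in Ctrl and -0.03 (SE 0.15, 95% interval -0.32 to 0.27, adjusted p = 0.92) in KO, the intervals being the normal approximation from the SE. Ctrl TAC 2, with its high level of liver transcripts, had 112 CPM of C3, inside the range of the other 3 Ctrl TAC libraries, and without it the Ctrl value was -0.22 (adjusted p = 0.419). C3 was called in none of 24 alternatives in either genotype, with adjusted p from 0.113 to 0.651 in Ctrl and from 0.67 to 1 in KO.

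C3 and C4b behaved differently between groups but varied together within them. Their log2 CPM correlated at r = -0.047 over the 16 libraries and at r = 0.791 once group means were removed, a description over libraries that both genes share. C3 relative to the summed level of 8 fibroblast markers went from 0.229 ± 0.029 in Ctrl sham to 0.125 ± 0.032 in Ctrl TAC and from 0.203 ± 0.012 in KO sham to 0.0999 ± 0.023 in KO TAC, with no overlap between sham and TAC, whereas C4b on the same scale was 0.0245 ± 0.0033, 0.0297 ± 0.0054, 0.0208 ± 0.0029 and 0.0278 ± 0.0061 in that order, with overlap. The fibroblast markers themselves rose after TAC (4 of 8 in Ctrl, 7 of 8 in KO, none fell), where 10.4% and 17.8% of all genes were called higher. Within the sum, Col1a1 was at 36.3 to 56.7 CPM in Ctrl sham and 142 to 178 in Ctrl TAC. Col1a2 was at 76.8 to 113 and 203 to 274 in these groups, whereas Dpt was at 50.5 to 57.3 and 43.6 to 62.9. In KO, Col1a1 was at 42.1 to 48.7 in sham and 192 to 208 in TAC. A fall relative to this sum thus includes the rise of its collagen genes. The genes most like C3 were Samhd1 (r = 0.675), Stk38l (0.672) and Gbp5 (0.670), and those most like C4b were Myof (0.963), Dync1li2 (0.960) and Adamts2 (0.958). With group means removed, r was 0.680, 0.725 and 0.674 for C3 and 0.762, 0.636 and 0.384 for C4b, in the same order.

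Cfd, the protease that starts the alternative pathway, was close to the limit of detection, with 4 to 35 counts in 15 libraries. It was at 0.265, 0.266, 0.237 and 0.0782 CPM in Ctrl sham, at 0.553, 0.350, 0.155 and 0.211 in KO sham and at 0.312, 0.114, 0.261 and 0.157 in KO TAC. Ctrl TAC had 0.458, 1.66, 0.122 and 0.237, so that the second library, with 111 counts, stood above all others. The log2 fold change in Ctrl of 1.52 (SE 0.66, adjusted p = 0.121) fell to 0.31 (adjusted p = 0.735) without Ctrl TAC 2, and in KO it was -0.60 (SE 0.68, adjusted p = 0.544). Without Ctrl TAC 3, its lowest library, the Ctrl value was 1.86 and passed (adjusted p = 0.0375), over a range of 0.0375 to 0.741 in 23 alternatives. Ctrl TAC 2 was also the library with the most Adipoq (0.657 CPM, against 0 to 0.245 elsewhere), Plin1 (0.583 against 0.0325 to 0.215) and Ucp1 (1.46 against 0 to 0.156), which mark white and brown adipocytes. The sum of the 7 adipocyte markers (15.9 to 25.6 CPM over all libraries) did not show this, as Cidea made up most of it at 15.3 to 25.1 CPM. The part of fat tissue in the Cfd level was not tested.

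Serping1, the C1 inhibitor, was the 1 member called between the genotypes after TAC. It was nearly uniform in sham hearts, at 53.8, 57.6, 60.3 and 57.3 CPM in Ctrl and 56.2, 56.6, 57.9 and 57.2 in KO. In Ctrl TAC it was at 74.0, 56.8, 74.7 and 75.8, with the second library at the sham level, and in KO TAC at 97.8, 100.1, 94.9 and 92.4. All KO TAC libraries were above all others. After TAC its log2 fold change was 0.30 (SE 0.070, adjusted p = 0.00575) in Ctrl, whose groups overlapped, and 0.76 (SE 0.071, adjusted p = 2.54e-07) in KO, and both calls held in all 24 alternatives. Without Ctrl TAC 2 the Ctrl value was 0.39 (adjusted p = 1.59e-05).

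Between the TAC groups, Serping1 was 96.3 ± 3.33 CPM in KO and 70.3 ± 9.03 in Ctrl (SD, n = 4), a log2 difference of 0.45 (SE 0.070, adjusted p = 0.00753), or 1.37-fold. It was the only 1 of the 9 genes called in that comparison, where 2.68% of all genes were called, 1.36% as higher in KO, and the only 1 without overlap, as were 10.5% of all genes. The difference was 0.36 (adjusted p = 0.00824) without Ctrl TAC 2 and 0.47 (adjusted p = 0.00807) without the library labelled KO TAC 4. The animal numbers in the sample titles fall into a series starting with 25 (Ctrl TAC 2 to 4 and the library labelled KO TAC 4) and a series starting with 3 (the other 12), and the labels give no meaning for them. Within the 25 series the log2 ratio of KO TAC to Ctrl TAC means was 0.42 (1 library against 3, the 1 being the library labelled KO TAC 4, whose Cardinal level goes against its label) and within the other 0.40 (3 against 1). With the series as a model term the difference was 0.41 but no longer passed (adjusted p = 0.0727), and over 24 alternatives the adjusted p ranged from 2.11e-06 to 0.0727. The interaction, which asks whether the response to TAC differed between genotypes, was 0.46 (SE 0.10, unadjusted p = 2.1e-04) and did not pass over all genes (adjusted p = 0.142).

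Fibroblast markers moved with Serping1. Their summed level was 567 to 636 CPM in Ctrl sham, 578 to 612 in KO sham, 789 to 1108 in Ctrl TAC and 1111 to 1296 in KO TAC, with the lowest Ctrl TAC value in the second library. Of the 8 markers, 1 was higher in KO TAC than in Ctrl TAC by the test and none lower, where 1.36% of all genes were called higher, and none was at 0. Serping1 per fibroblast sum was 0.0953 ± 0.00085 in Ctrl sham, 0.0949 ± 0.0015 in KO sham, 0.0740 ± 0.0049 in Ctrl TAC and 0.0796 ± 0.0042 in KO TAC. The TAC groups overlapped on this scale, but in each genotype TAC lay below sham without overlap. The ranges were 0.0684 to 0.0797 under 0.0948 to 0.0965 in Ctrl and 0.0754 to 0.0854 under 0.0940 to 0.0971 in KO. This sum is the one that holds the collagen genes. The part of fibroblast RNA in the Serping1 difference was not tested. Mxra8 (r = 0.977), Smc4 (0.977) and Eef1a1 (0.981) were the genes most like Serping1, with r of 0.842, 0.799 and 0.786 within groups.

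The anaphylatoxin receptors were low, at 2.33 to 7.00 CPM. C3ar1, the receptor for the C3 fragment, was at 3.33, 3.36, 5.24 and 3.25 CPM in Ctrl sham and at 2.45, 2.33, 4.80 and 3.32 in KO sham. It was at 7.00, 3.87, 5.11 and 4.53 in Ctrl TAC and at 4.19, 5.16, 4.94 and 5.94 in KO TAC, and sham and TAC overlapped in both genotypes. The log2 fold change was 0.43 (SE 0.23, adjusted p = 0.21) in Ctrl and 0.65 (SE 0.23, adjusted p = 0.0378) in KO, and the KO call held in 15 of 24 alternatives (adjusted p up to 0.262). It was lost without KO sham 1, 2 or 4 or KO TAC 2, 3 or 4, with adjusted p of 0.0642 to 0.114.

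C5ar1, the receptor for the C5 fragment, was at 2.56, 2.42, 3.25 and 3.68 CPM in Ctrl sham and at 2.81, 3.04, 3.03 and 3.08 in KO sham. It was at 3.19, 4.87, 4.17 and 3.61 in Ctrl TAC and at 4.38, 4.22, 3.34 and 5.02 in KO TAC, where it did not overlap KO sham. The log2 fold change was 0.51 (SE 0.15, adjusted p = 0.0163) in KO, not called without the library labelled KO TAC 4 (adjusted p = 0.063, the highest of 24 alternatives). In Ctrl it was 0.42 (SE 0.15, adjusted p = 0.0667), called in 4 of 24 alternatives, among them those without Ctrl sham 4 (adjusted p = 0.0269) and without Ctrl TAC 1 (adjusted p = 0.0341), over a range of 0.0269 to 0.713.

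Receptor levels relative to the macrophage markers stayed in one range, at 0.0165 ± 0.0030, 0.0146 ± 0.0038, 0.0171 ± 0.0039 and 0.0160 ± 0.0028 for C3ar1 and 0.0129 ± 0.0015, 0.0138 ± 0.0011, 0.0134 ± 0.0033 and 0.0133 ± 0.0015 for C5ar1, in the order Ctrl then KO for sham and Ctrl then KO for TAC. Neutrophil markers, of a cell type that also carries these receptors, summed to only 0.984 to 3.31 CPM over 7 genes in all libraries, with Ly6g at 0 in all 16. Genes most like C3ar1 were Tmem106a (r = 0.875), Tbl2 (0.872) and Cd248 (0.864), and Tmem200b (0.925), Gng2 (0.900) and Inpp5d (0.899) were most like C5ar1. For Cfd they were Smarca4 (r = 0.843), Zbtb17 (0.814) and Gemin5 (0.812), which fell to 0.689, 0.530 and 0.670 without Ctrl TAC 2.

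**Figure D3:**
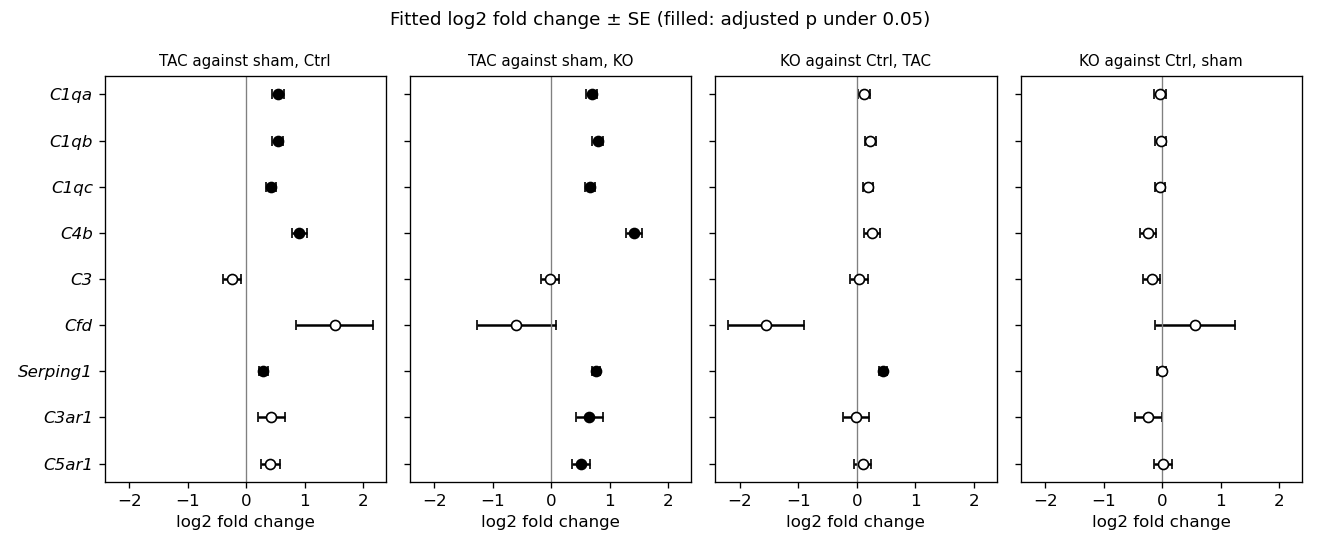
Each panel is 1 comparison, with the fitted log2 fold change (circle) and its SE (bar) for each of the 9 genes, filled where the adjusted p was under 0.05. TAC against sham has 5 filled circles in Ctrl and 7 in KO, KO against Ctrl has only Serping1 after TAC (0.45) and none after sham.

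Genotype made no called difference to the other 8 genes after TAC. The C1q genes had log2 differences of 0.12 for C1qa (95% interval -0.08 to 0.32, adjusted p = 0.582), 0.23 for C1qb (0.04 to 0.41, adjusted p = 0.197) and 0.19 for C1qc (0.02 to 0.36, adjusted p = 0.257). C4b differed by 0.26 (0.0046 to 0.52, adjusted p = 0.299) and C3 by 0.04 (-0.26 to 0.33, adjusted p = 0.928). Cfd differed by -1.55 (SE 0.65, adjusted p = 0.21), or -0.35 (adjusted p = 0.845) without Ctrl TAC 2. C3ar1 differed by -0.01 (-0.46 to 0.43) and C5ar1 by 0.10 (-0.20 to 0.40).

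In sham hearts none of the 9 genes was called between genotypes and none had an unadjusted p under 0.05, by edgeR, and DESeq2 called 0, where 0.0% of all genes were called. The log2 differences ran from -0.24 (C4b) to 0.57 (Cfd). Cardinal, the deleted gene, was itself not called by edgeR in sham hearts (-2.92, SE 0.82, unadjusted p = 0.00358), although its groups did not overlap. After TAC it was not called either (-1.57, adjusted p = 0.263, with the library labelled KO TAC 4 included). The absence of a call is therefore not evidence that genotype had no effect. In the interaction none of the 9 passed by edgeR's quasi-likelihood test, where 0.0109% of all genes were called, and 3 had an unadjusted p under 0.05, Serping1, C4b (0.50, SE 0.19, unadjusted p = 0.0171) and Cfd (-2.11, SE 0.95, unadjusted p = 0.0402). Without Ctrl TAC 2 the Cfd value was -0.91 (adjusted p = 0.763). DESeq2 called Serping1 alone of the 9 in the interaction (0.46, adjusted p = 0.00774), over a range of 0.00774 to 0.36 in 23 alternatives. The share of all genes that DESeq2 called there is not given here, and edgeR's share of 0.0109% does not apply to it. The comparisons between TAC groups, within genotypes and in the interaction use the same libraries.

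Per length, in CPM per kilobase of exon, C1qa was the most abundant of the 9 genes in every group, at 27.3 ± 3.61 in Ctrl sham, 26.8 ± 2.21 in KO sham, 39.8 ± 1.12 in Ctrl TAC and 43.1 ± 6.84 in KO TAC. In sham hearts it was followed by C3, Serping1 and C1qb (Serping1 before C3 in KO), at means between 22.7 and 26.8, and the neighbours in that order overlapped. C1qc at 12.1 ± 1.57 in Ctrl sham lay below these and C4b at 2.60 ± 0.469 below C1qc, with no overlap at either step. C5ar1 (1.16 ± 0.229) and C3ar1 (0.881 ± 0.224) overlapped, and Cfd (0.229 ± 0.0973) had the lowest mean in all 4 groups, overlapping C3ar1 in KO sham and Ctrl TAC. In KO TAC the order at the top became C1qa, Serping1 (41.4 ± 1.43) and C1qb (39.3 ± 5.74), which overlapped, above C3 at 23.3 ± 4.04. C3 was at 22.7 ± 4.17 in Ctrl TAC, and there C1qb and Serping1 stood at 33.5 ± 3.05 and 30.2 ± 3.89.

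The rest of the cascade was described from a list of 44 further complement genes, of which 33 had counts enough to test. After TAC, 6 rose and 3 fell in Ctrl (9 of 33 called, where 20.0% of all genes were) and 13 rose and 7 fell in KO (20 of 33 called, where 34.3% of all genes were). Their median log2 fold change was 0.23 and 0.28. Cfi, 1 of the 6 that rose in Ctrl, was near the floor, at 0.141, 0.568, 0.0608 and 0.181 CPM in Ctrl TAC. Its highest value was in Ctrl TAC 2. The 11 not tested were Mbl1, Mbl2, Fcnb, Colec10, Hc (C5), C8a, C8b, C9, C4bp, Cpn1 and Cd55b, which include most terminal components and several proteins of the liver. Hc, Mbl2, C8a and C4bp had their highest counts (47, 31, 30 and 33) in Ctrl TAC 2. The Ctrl count was 5 without Ctrl sham 1 or Ctrl TAC 1, and the shares of all genes called in those fits are not given here.

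**Figure D4:**
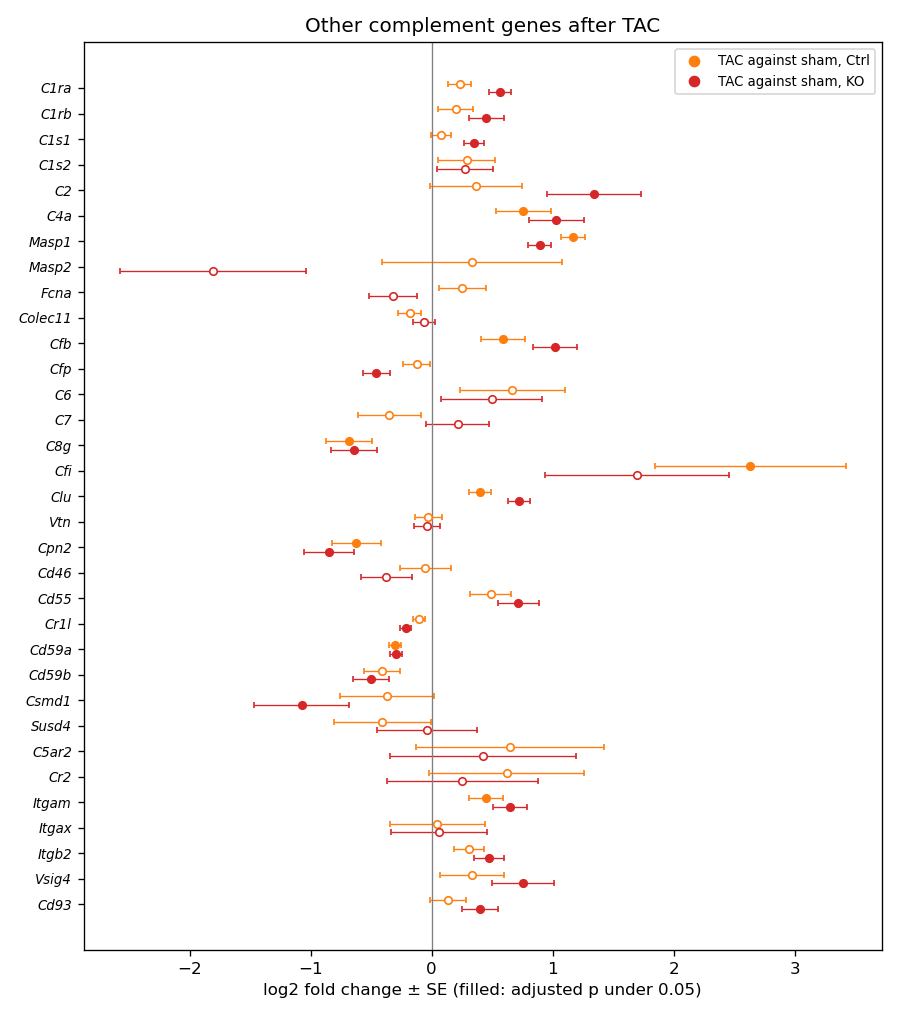
The 33 tested complement genes outside the 9 are listed from initiators at the top to receptors at the bottom, with the log2 fold change and SE of TAC over sham in Ctrl (orange) and KO (red), filled where the adjusted p was under 0.05. Most called genes lie to the right, Masp1 and Clu in both genotypes, and Cd59a, C8g and Cpn2 lie to the left in both.

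Among initiators, Masp1, a protease of the lectin pathway, rose from 9.18 ± 0.867 CPM in Ctrl sham to 20.7 ± 1.38 in Ctrl TAC (log2 fold change 1.17, SE 0.098, adjusted p = 2.89e-07) and from 10.04 ± 1.28 in KO sham to 18.6 ± 2.12 in KO TAC (0.89, adjusted p = 1.61e-06). Neither genotype had overlap between sham and TAC. The C1 proteases rose in KO, C1ra from 11.9 ± 1.03 to 17.6 ± 1.74 (0.56, adjusted p = 1.34e-04) and C1s1 from 30.3 ± 1.61 to 38.6 ± 4.72 (0.35, adjusted p = 0.00326). In Ctrl their values were 0.23 (adjusted p = 0.0939) and 0.08 (adjusted p = 0.564), and C1ra passed there without Ctrl TAC 2 (0.30, adjusted p = 0.0249, in a range up to 0.255). Factor B (Cfb), the protease of the alternative pathway, rose from 2.66 ± 0.590 to 4.00 ± 0.810 in Ctrl (0.59, adjusted p = 0.0281) and from 2.17 ± 0.489 to 4.40 ± 0.512 in KO (1.02, adjusted p = 3.01e-04). C1ra with C1rb and C1s1 with C1s2 are near-identical pairs, and 79.5% of the exon bases of Cfb belong also to Gm20547, a gene with 34 counts in all libraries together, so these values are uncertain. The Ctrl call of Cfb was lost without Ctrl sham 1 or 2 or Ctrl TAC 1 or 2 (adjusted p of 0.0611 to 0.0927). It was also lost with animal numbers starting with 33 as a model term (adjusted p = 0.0512). Without Ctrl TAC 2 and the library labelled KO TAC 4 together, its adjusted p was 0.0972. Properdin (Cfp), which stabilises the C3 convertase of the alternative pathway, fell in KO from 5.37 ± 0.398 to 3.91 ± 0.567 (-0.46, SE 0.11, adjusted p = 0.00417), with no overlap, and was -0.12 in Ctrl (adjusted p = 0.498).

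Among the soluble regulators, clusterin (Clu), which binds the terminal complex, was at 376, 340, 354 and 418 CPM in Ctrl sham, at 434, 390, 419 and 383 in KO sham, at 587, 446, 432 and 502 in Ctrl TAC and at 644, 735, 696 and 607 in KO TAC. Sham and TAC did not overlap in either genotype. Clu rose from 372 ± 34.1 to 492 ± 70.2 CPM in Ctrl (0.40, adjusted p = 0.00379) and from 406 ± 24.4 to 671 ± 56.3 in KO (0.72, adjusted p = 7.36e-06). Cpn2, a subunit of the carboxypeptidase that inactivates anaphylatoxins, fell from 3.12 ± 0.763 to 2.03 ± 0.485 in Ctrl (-0.62, adjusted p = 0.0381) and from 2.83 ± 0.168 to 1.56 ± 0.399 in KO (-0.85, adjusted p = 0.00367). The Ctrl call of Cpn2 was lost without Ctrl sham 1 or 2 or Ctrl TAC 1, 3 or 4 (adjusted p of 0.0669 to 0.129).

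Clu was the 1 of 33 genes called between the TAC groups, higher in KO by 0.45 (SE 0.089, adjusted p = 0.0172), with no overlap. Of all genes, 2.68% were called in that comparison, 1.36% as higher in KO, and 10.5% had no overlap. The call of Clu did not hold in all analyses. Clu was not called without Ctrl TAC 2 (adjusted p = 0.0719), KO TAC 2 (0.059) or KO TAC 3 (0.0603). Over 24 alternatives the adjusted p reached 0.112, its value with a model term for the 25 series. Of the 33 genes, 0 were called between genotypes in sham hearts or in the interaction by edgeR (0 and 3 with an unadjusted p under 0.05), and DESeq2 called 0 and 0.

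Of the regulators on cell membranes, Cd55 rose and Cd59a, Cd59b, Cr1l and Csmd1 fell in KO, Cd59a alone was called in Ctrl, where it fell, and Cd46 and Susd4 were called in neither. Cd59a, which blocks the membrane attack complex, fell from 85.1 ± 4.57 CPM to 69.0 ± 3.48 in Ctrl (-0.30, SE 0.052, adjusted p = 4.03e-04) and from 85.1 ± 2.94 to 69.4 ± 3.19 in KO (-0.29, SE 0.052, adjusted p = 2.42e-04), with no overlap in either. Cr1l (Crry), which protects cells from C3 deposition, fell in KO from 55.6 ± 2.49 to 47.9 ± 1.65 (-0.22, adjusted p = 0.00159) and was -0.11 in Ctrl (adjusted p = 0.127). Cd55, which speeds decay of the C3 convertase, rose in KO from 7.28 ± 1.25 to 11.97 ± 1.68 (0.72, adjusted p = 0.0032). The KO call was lost with animal numbers starting with 33 as a model term (0.66, adjusted p = 0.0546). In Ctrl the Cd55 value was 0.49 (adjusted p = 0.0524), passing without Ctrl sham 2 (0.0444), KO sham 3 (0.0429) or Ctrl TAC 2 (0.00619). Cardiomyocyte markers fell over the same comparisons (4 of 6 in Ctrl, 5 of 6 in KO), where 20.0% and 34.3% of all genes were called in either direction. Their part in the lower Cd59a and Cr1l was not tested. Itgam, a chain of the leukocyte receptor for C3 fragments, rose from 4.71 ± 0.892 to 6.44 ± 0.358 in Ctrl (0.45, adjusted p = 0.0272) and from 4.75 ± 0.745 to 7.44 ± 1.12 in KO (0.65, adjusted p = 0.00121), and 68.7% of its exon bases belong also to Gm49368, which makes its value uncertain. Its Ctrl call was lost without Ctrl sham 1, 2 or 4 or Ctrl TAC 1 or 4 (adjusted p of 0.0547 to 0.0824). With the 25 series as a model term it was lost too (0.40, adjusted p = 0.165). Itgb2, which pairs with Itgam in that receptor, rose in KO from 4.64 ± 0.532 to 6.44 ± 0.300 (0.47, SE 0.12, adjusted p = 0.00573), with no overlap, and was 0.31 in Ctrl (adjusted p = 0.0872), passing there without Ctrl sham 4 (0.42, adjusted p = 0.0186).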

How the data were processed

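RNA from the heart apex was made into poly(A) libraries and read as 150-base pairs. Raw counts were deposited as a single table, with Ensembl genes in rows and mice in columns. The submitters' processing notes name cutadapt 2.3, FastQC, HISAT2 2.1.0, edgeR 3.26.1 and build GRCm38. The counting program, annotation and strand setting are not given in the sources used here. Columns were matched to mice by animal number. Names and positions came from GENCODE M21, which named 55227 (99.5%) of the genes, and the others held 0.00355% of the counts.

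Counts were filtered with filterByExpr, scaled by TMM and fitted in edgeR 4.0.16 (R 4.3.3) with 1 mean per group over 16 libraries (glmQLFit, robust), and 5 contrasts were tested with glmQLFTest, two-sided. A gene was called at a Benjamini-Hochberg adjusted p under 0.05 over 18275 genes. The SE is the log2 fold change divided by the square root of F. CPM precision follows depth (totals of 53169437 to 79404714). Replicate libraries of a group differed by more than sampling noise in every pair (chi-square per gene 10.5 to 77.2). The labels give 1 animal number per library.

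The 9 genes, the 44 further complement genes and the marker lists were chosen with earlier results of these data known, and some other genes of the cascade are not reported here. Values are given for the 9 genes, for up to 12 further complement genes with the smallest adjusted p among those called in a comparison of 2 groups and averaging 0 or more in log2 CPM (C4a was added after its values were seen, beside C4b), and for the 3 genes with the highest Pearson's r to each member among those averaging 2 or more. Alternatives were RLE factors, DESeq2 1.42.0, other filters (none beyond 1 count, a minimum of 10 counts throughout), a threshold of 0.01 for the adjusted p, 2 animal-number terms, fits to 8 libraries, and the omission of each library or of Ctrl TAC 2 with the library labelled KO TAC 4.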

Additional observations from a re-analysis of the deposited data

Results flagged for a closer look

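Among 84 groups of 4 libraries (21 genes in 4 groups), 4 held a library far from the other 3 by Dixon's criterion, and chance flags about 1 in 20 groups. Serping1 at 56.8 CPM and C1ra at 12.1 CPM were the lowest values of Ctrl TAC, both in Ctrl TAC 2, the library with high albumin. Cfd at 0.0782 CPM (4 counts) was the lowest value of Ctrl sham, in Ctrl sham 4. C3ar1 at 5.24 CPM was the highest value of Ctrl sham, in Ctrl sham 3.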

How the results depend on the processing

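No direction of a called value turned in any alternative. The counts of called genes among the 9 ranged over the fits without 1 library from 5 to 6 (TAC over sham in Ctrl), 5 to 7 (in KO), 1 to 1 (KO over Ctrl after TAC), 0 to 0 (after sham) and 0 to 0 (interaction), and among the other complement genes from 5 to 10, 16 to 20, 0 to 1, 0 to 0 and 0 to 0. With the animal-number series starting with 25 as a term, 0 of the 9 and 0 of the other genes were called between TAC groups, where calls over all genes went from 489 to 12. DESeq2 called 1 of the 9 in the interaction and 2 other genes between TAC groups (Clu, and C1ra at 0.30, adjusted p = 0.0367). Of the other genes, fits to the 8 libraries compared called 5 after TAC in Ctrl and 0 between TAC groups. An adjusted p under 0.01 left 3 of these genes after TAC in Ctrl, 13 in KO and 0 between TAC groups. Numbers starting with 33 as a term left 12 after TAC in KO. Cfp (-0.28, adjusted p = 0.15) and Cd55 (0.66, adjusted p = 0.0546) were among those lost. Without Ctrl TAC 2 and the library labelled KO TAC 4 together, 0 of these genes were called between TAC groups. Calls over all genes are given only for the 25 series term. The other counts here therefore cannot be set against the share of all genes called. The causes were not tested. No paired analysis was possible because the labels give animal numbers and no replicate numbers shared between groups. Of the 9 genes, depth was lowest for Cfd, with 4 to 35 counts in 15 of the libraries.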
